A study of Homo sapiens with 12 samples.

Results

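The mitochondrial ribosomal protein genes were followed here in human melanoma cells exposed to 2 telomerase-directed compounds. Members were all genes of the deposited count table whose symbol is MRPL or MRPS followed by digits and at most 1 letter, which gave 77 of 75253 features, or 77 of the 21177 with a gene symbol. They comprised 48 MRPL genes, named for the large subunit, and 29 MRPS genes, named for the small subunit. RNA-seq had been run on 2 melanoma lines, A375 and LOX-IMVI BR, each as a control, with 6-thio-dG at 5 µM and with BIBR1532 at 25 µM. Each of the 6 groups had 2 libraries, described in the labels as biological replicates; no time of exposure was given in the sources used here. 6-thio-dG is a nucleoside analogue that telomerase can add to telomeres, and BIBR1532 is a non-nucleoside inhibitor of telomerase. The labels name no genetic change in any group, and each line is 1 cultured cell line.

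Mitochondrial ribosomes translate the few proteins encoded by mitochondrial DNA, all of them subunits of the respiratory chain and ATP synthase. Their proteins are encoded in the nucleus, made in the cytosol and imported, and they assemble on rRNA transcribed inside the organelle. Some descend from the ribosome of the bacterial ancestor and others were added later. By that division, 48 members had a bacterial counterpart (30 large, 18 small) and 29 were mitochondria-specific. Symbols do not always follow position: MRPS18A and MRPS30 are proteins of the large subunit, and MRPS36 is found with the oxoglutarate dehydrogenase complex.

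Promoters of nuclear genes for mitochondrial proteins are known for sites of ETS-family factors such as GABP, of NRF1 and of YY1. RefSeq promoter windows (GRCh38.p14, 250 bases before to 50 after the start) were matched for 68 of the 77 members and searched on both strands for 4 exact motifs. The ETS motif CCGGAAG was present in 28 of the 68 (41.2%) and in 14.3% of all 14444 windows. The YY1 motif AAGATGGC was present in 20 (29.4%) against 4.0% of all windows. The NRF1 motif GCGCATGCG was present in 3 (4.4%) against 2.7%, and the E-box CACGTG, to which MYC binds, in 6 (8.8%) against 8.9%. In all, 43 of the 68 held at least 1 of the 4. A match describes the letters of the window and is not a measured binding site.

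The following windows of 100 bases end at the base before the transcription start of some of the members named below. Most were picked because the ETS and YY1 motifs, in capitals, recur in them at different distances and in both orientations. They are therefore no sample of the family, and the same window of MRPL49, not printed, held neither motif. All are written 5′ to 3′ on the gene's strand, in GRCh38.p14.
MRPL3 (chr3:131502972-131503071, minus strand): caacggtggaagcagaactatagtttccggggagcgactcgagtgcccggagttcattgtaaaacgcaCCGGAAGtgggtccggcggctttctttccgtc
MRPS31 (chr13:40771191-40771290, minus strand): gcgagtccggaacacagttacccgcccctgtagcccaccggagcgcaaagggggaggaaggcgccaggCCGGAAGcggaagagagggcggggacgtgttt
MRPL47 (chr3:179604639-179604738, minus strand): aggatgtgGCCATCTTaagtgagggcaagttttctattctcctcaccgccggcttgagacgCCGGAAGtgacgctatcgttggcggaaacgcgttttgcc
MRPS22 (chr3:139343894-139343993, plus strand): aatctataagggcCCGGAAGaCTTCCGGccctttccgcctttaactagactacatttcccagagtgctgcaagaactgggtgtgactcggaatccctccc
MRPS26 (chr20:3045952-3046051, plus strand): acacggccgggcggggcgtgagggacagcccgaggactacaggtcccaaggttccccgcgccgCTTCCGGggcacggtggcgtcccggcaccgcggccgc
MRPS34 (chr16:1773135-1773234, minus strand): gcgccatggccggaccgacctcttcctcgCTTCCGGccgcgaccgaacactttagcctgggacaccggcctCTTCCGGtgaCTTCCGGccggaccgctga
MRPL52 (chr14:22829787-22829886, plus strand): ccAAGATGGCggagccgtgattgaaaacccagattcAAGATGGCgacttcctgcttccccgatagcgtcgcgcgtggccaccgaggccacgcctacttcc
MRPL44 (chr2:223957363-223957462, plus strand): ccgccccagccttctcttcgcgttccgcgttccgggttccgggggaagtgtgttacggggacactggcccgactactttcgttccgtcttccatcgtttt
MRPL3, MRPS31 and MRPL47 carried the ETS motif on the gene's own strand, MRPS26 and MRPS34 on the other, and MRPS22 on both. The MRPL52 window held the YY1 motif 2 times, and that of MRPL44 held none of the 4.

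In other members the YY1 motif lay just downstream of the start. It is shown in capitals in 30 bases around it for 4 genes named below, because it began within 20 bases of the start in each of them.
MRPL42 (chr12:93467511-93467540, plus strand): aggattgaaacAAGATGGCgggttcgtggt
MRPL45 (chr17:38297170-38297199, plus strand): tttgcgggaacAAGATGGCagcccccatac
MRPS24 (chr7:43869480-43869509, minus strand): ccgcttggcccAAGATGGCggcctccgtgt
MRPS27 (chr5:72320206-72320235, minus strand): tggtacgctccAAGATGGCtgcctccatag

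Library totals ran from 11813388 to 25822381 counts, and both A375 libraries with 6-thio-dG were at the low end. Levels are given as CPM, counts scaled to a common library size with TMM factors, which compare a gene between libraries but not 1 gene with another. Of the 77 members, 72 had enough counts to be tested. The other 5, MRPL20, MRPL21, MRPL33, MRPS18C and MRPS33, never passed 8 counts in any library. HSPE1, TOMM7, SLIRP, TIMM23 and TFAM, other genes for mitochondrial proteins singled out after their values were seen, were also below 1 CPM throughout, whereas HSPD1, the partner chaperone of HSPE1, was at 105.4 to 865.7 CPM. A count near 0 may therefore not reflect expression, and its cause was not tested. A GENCODE-named pseudogene copy existed for 34 members, and the library kit did not keep strand, so reads from near-identical copies or from overlapping genes could not be separated. The melanoma label was checked against 8 melanocyte genes: SOX10 was at 284 to 1412 CPM in A375 and below 1 CPM in LOX-IMVI BR, while the pigment gene TYR was at or near 0 in all 12 libraries. The summed melanocyte list ran from 312 to 1464 CPM in A375, mostly from SOX10, and from 10.2 to 27.3 CPM in LOX-IMVI BR. PMEL, MLANA, TYRP1 and DCT were at most 5.7 CPM in every library. A list of dedifferentiated melanoma genes, AXL, NGFR, EGFR, WNT5A and SOX9, was also summed. It ran from 280 to 1824 CPM in A375 and from 446.5 to 1833 CPM in LOX-IMVI BR, where NGFR was below 1 CPM. Leukocyte markers summed to at most 6.58 CPM and endothelial markers to at most 7.89 CPM. In A375, 4 epithelial markers summed to 291 to 613 CPM, with KRT8 and KRT18 high and EPCAM and CDH1 below 1 CPM, and 4 keratinocyte markers to 130 to 324 CPM, mostly from KRT10. Their part in the members' values was not tested.

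The 2 A375 controls did not match each other for these genes, and this bears on every result that uses them. The summed level of all 77 members was 5069 and 10444 CPM in A375 controls 1 and 2, 6647 and 5221 CPM with 6-thio-dG, and 5514 and 5210 CPM with BIBR1532. Control 2 stood above control 1 in 67 of the 72 tested members, by a median of 1.04 on the log2 scale. In each of the other 5 groups the median signed difference between the 2 replicates lay between -0.36 and 0.02. Without regard to sign, the median member difference was 1.06 in A375 controls and 0.55 with 6-thio-dG in A375. It was 0.06 to 0.12 in the remaining groups. Over all features the A375 6-thio-dG pair differed by 0.69 and the A375 controls by 0.63, so the treated pair was unlike as well. Both treated A375 groups lay between the controls in summed level, so the treated and control groups overlapped. The TMM factor of control 2 was 0.746 against 1.037 for control 1, and the members' share of its raw counts was also the highest of the 12, 0.778% against 0.525% in control 1.

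LOX-IMVI BR gave a far tighter picture. Summed levels were 4344 and 4209 CPM in controls, 4300 and 4353 CPM with 6-thio-dG, and 4282 and 4335 CPM with BIBR1532. All 6 values lay within a narrow band and the groups overlapped. The result depended on scaling: as a share of raw counts the members rose from 0.381% and 0.377% in controls to 0.512% and 0.508% with 6-thio-dG, without overlap, and stood at 0.399% and 0.401% with BIBR1532. The TMM factors were 1.194 and 1.171 with 6-thio-dG and 0.878 and 0.898 in controls, and summed CPM is that share divided by the factor. In bulk RNA, fewer cells expressing a gene and less RNA per cell cannot be told apart.

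**Figure D1:**
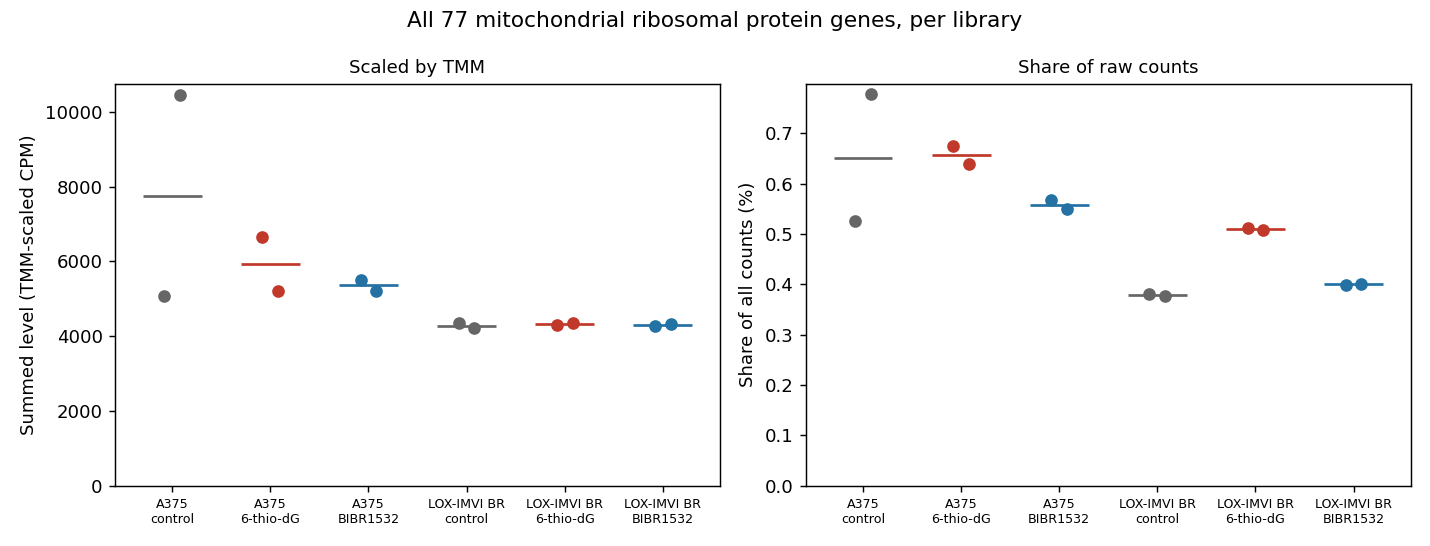
Summed level of the 77 members per library, as TMM-scaled CPM (left) and as percent of raw counts (right); points are libraries and lines are means of 2. A375 control 2 stands at 10444 CPM, above the other 11 libraries, and the 6-thio-dG libraries of LOX-IMVI BR are separated from their controls only on the right.

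In A375, 6-thio-dG lowered 13 of the 72 tested members and raised none (edgeR quasi-likelihood test, adjusted p under 0.05). Across all 29114 features, 9.86% were called higher and 8.21% lower, and among the 14439 with a gene symbol 7.81% were higher and 12.9% lower, against 18.1% of members lower. The median member changed by -0.34 on the log2 scale, the median gene with a symbol by -0.24 and the median feature by 0.03; 59 of 72 members had a negative value. With upper-quartile scaling, which raised the median feature by 0.39, the median member stood at 0.07 and the calls were 2 higher and 3 lower. In a fit to the A375 libraries alone no member was called, with either compound, against 5.11% and 3.85% of all features tested in that fit. The called members were spread over both subunits, 7 of 45 large and 6 of 27 small by name, and over both origins, 8 of 44 with a bacterial counterpart and 5 of 28 without. This count rested on the controls. Without A375 control 2 fewer members were called, not all of them lower, and the median member was at 0.27. Without control 1 more members were called, all lower, with a median of -0.78. Calls over all features changed less, and each of these fits left 1 control library.

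MRPL3 is a large subunit protein with a bacterial counterpart, and inherited defects in it cause a mitochondrial cardiomyopathy. It measured 25.2 and 37.7 CPM in A375 controls and 7.60 and 13.5 CPM with 6-thio-dG. The groups did not overlap, which the rule for naming it required, and both treated libraries lay well under the lower control. The change was -1.57 ± 0.34 (SE) on the log2 scale with an edgeR adjusted p of 0.00698. MRPL48, a mitochondria-specific large subunit protein, measured 25.3 and 45.8 CPM in controls and 9.69 and 14.8 CPM with 6-thio-dG, a change of -1.53 ± 0.34 (adjusted p = 0.00767). MRPL3 and MRPL48 kept their calls without either control and under each other alternative, except a fit to the A375 libraries alone, where their adjusted p values were 0.0962 and 0.098.

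MRPL42, also mitochondria-specific, measured 33.3 and 69.9 CPM in controls against 7.35 and 27.3 CPM with 6-thio-dG. Its treated replicates differed by 1.88 on the log2 scale, the largest difference between 2 treated A375 replicates among the members. The change was -1.56 ± 0.48 (adjusted p = 0.0359), and it was -0.95 (adjusted p = 0.267) without control 2 and -0.91 (adjusted p = 0.103) without the first treated library. MRPL1, of the mobile stalk where tRNAs leave the ribosome, measured 3.48 and 8.96 CPM in controls and 0.919 and 3.16 CPM with 6-thio-dG. Its change of -1.53 ± 0.51 (adjusted p = 0.0475) missed the threshold without control 2 (-0.75, adjusted p = 0.317). Both genes were close to the limit and depended on which control was used.

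BIBR1532 in A375 lowered 8 members and raised 1, against 7.29% lower and 8.49% higher among all features. Among genes with a symbol 10.3% were lower and 8.95% higher, close to the 11.1% of members that were lower. The median member changed by -0.54, the median gene with a symbol by -0.15 and the median feature by -0.04. Without control 2 fewer members were called, all higher, and the median was 0.11. Without control 1 more were called, all lower, with a median of -0.90. Calls over all features changed less. Without 1 or the other BIBR1532 library the median member was at -0.57 or -0.50. The remaining library was then assumed to vary like the other groups, calls over all features became rarer, and no member kept its call. MRPS22, a mitochondria-specific small subunit protein, measured 71.3 and 118.6 CPM in controls and 28.8 and 31.8 CPM with BIBR1532, a change of -1.65 ± 0.38 (adjusted p = 0.0122). The groups did not overlap, and 6-thio-dG gave 22.9 and 55.4 CPM in the same line (-1.28 ± 0.38, adjusted p = 0.0322). Without control 2 the MRPS22 change was -1.23 (adjusted p = 0.0689) with BIBR1532 and -0.88 (adjusted p = 0.153) with 6-thio-dG.

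MRPS31, another mitochondria-specific small subunit protein, fell from 21.9 and 29.2 CPM to 6.01 and 9.74 CPM with BIBR1532, by 1.70 on the log2 scale with an adjusted p of 0.0205. MRPL1 stood at 1.66 and 1.60 CPM with BIBR1532 (-1.89 ± 0.50, adjusted p = 0.0216). MRPL47, which lies near the exit of the peptide tunnel, measured 18.5 and 36.04 CPM in controls and 10.1 and 10.6 CPM with BIBR1532 (-1.39 ± 0.45, adjusted p = 0.0472). None of these 3 overlapped with its controls, which the rule for naming them required. None kept its call without control 2, where the changes of MRPS31, MRPL1 and MRPL47 were -1.475, -1.089 and -0.83. Once the trend with GC content was removed, MRPL47 was at -0.28 (adjusted p = 0.392) and MRPL1 at -0.88 (adjusted p = 0.119), while MRPS31 was at -0.82 and kept its call (adjusted p = 0.0188). MRPL1 with 6-thio-dG was then at -0.84 (adjusted p = 0.154).

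MRPS6, a conserved small subunit protein, was the 1 member that rose with BIBR1532 in A375. It measured 41.6 and 57.6 CPM in controls, 99.1 and 90.6 CPM with BIBR1532, and 66.6 and 43.3 CPM with 6-thio-dG. The BIBR1532 libraries lay above all 4 others of that line, with a change of 0.94 ± 0.30 (adjusted p = 0.0496) that missed the threshold without control 1 (0.72, adjusted p = 0.111). In LOX-IMVI BR the same gene lay at 53.0 and 46.8 CPM in controls, 33.8 and 37.9 CPM with BIBR1532 and 26.2 and 25.9 CPM with 6-thio-dG. There 6-thio-dG lowered it (-0.94 ± 0.30, adjusted p = 0.0472), while the BIBR1532 value was -0.48 ± 0.30 (adjusted p = 0.515). The difference between the lines in the BIBR1532 effect was -1.41 ± 0.43 with an adjusted p of 0.0778.

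GC content of the transcript moved with the A375 changes and is given beside them. Among tested members, the 24 with the lowest GC content (35 to 46.4%) had a median change of -0.71 with 6-thio-dG, against -0.21 and -0.34 in the middle and highest groups of 24. They held 9 of the 13 called members. With BIBR1532 the same 3 medians were -0.78, -0.29 and -0.47. Across the 72 members the Pearson correlation of change with GC content was 0.21 and 0.32 for 6-thio-dG and BIBR1532 in A375, and 0.28 and 0.34 across the 14374 genes with a symbol and a GC value. In LOX-IMVI BR it was -0.07 and -0.33 across members. These correlations are across genes that share libraries and are descriptions; the part of GC content in the changes was not tested beyond removing its trend.

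**Figure D2:**
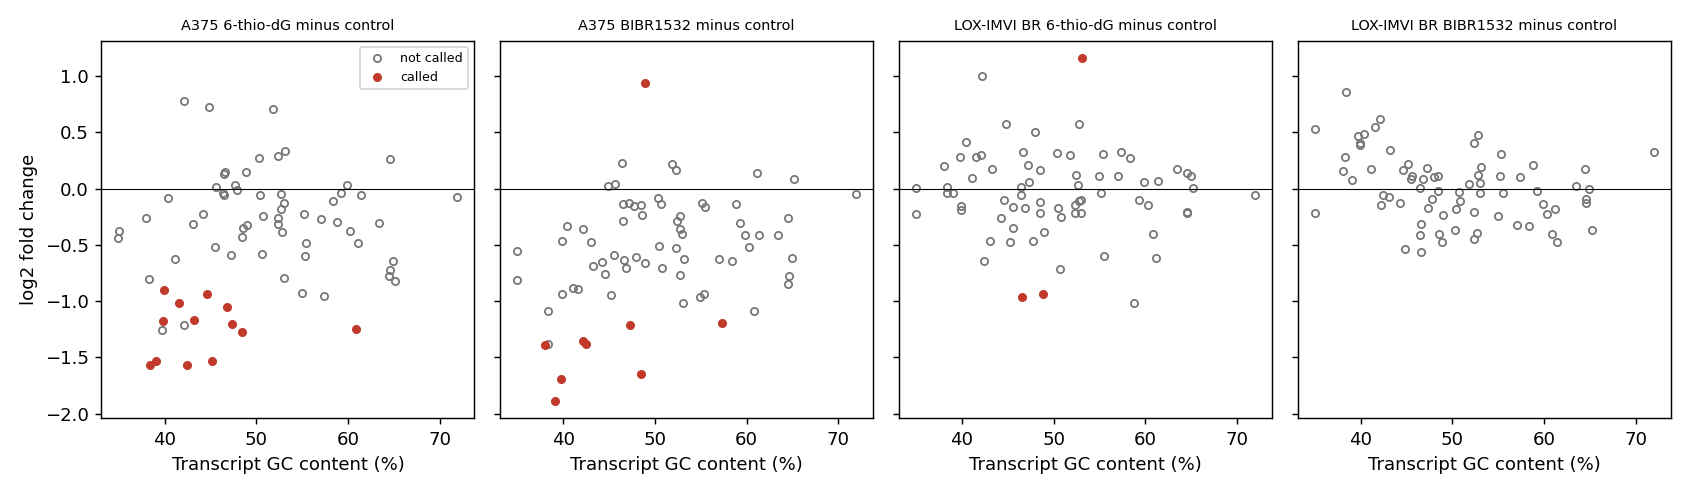
Log2 fold change against control of each of the 72 tested members by GC content of its transcript in percent, in 4 comparisons; filled points passed an adjusted p of 0.05. In A375 the filled points lie mostly at low GC content, and with BIBR1532 in LOX-IMVI BR no point is filled.

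**Figure D3:**
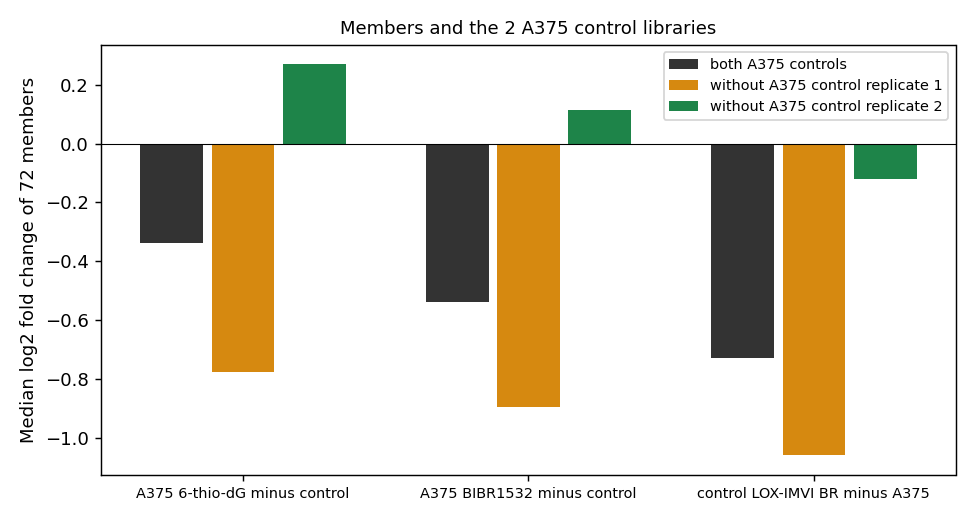
Median log2 fold change of the 72 tested members in the 3 comparisons that use A375 controls, with both controls and without either. For both treatments of A375 the median is negative with both controls and positive without control 2 (0.27 and 0.11).

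In LOX-IMVI BR, 6-thio-dG raised 1 member and lowered 2 of 72, or 1.39% and 2.78%, against 9.81% of all features called higher and 7.16% called lower, and 6.21% and 10.8% of genes with a symbol. The median member was at -0.04 and the median feature at 0.05, while with upper-quartile scaling, which raised the median feature by 0.23, the median member was at 0.19 and 2 members were higher and 0 lower. A list of 4 fibroblast markers, led by COL1A1, summed to 1701 and 1676 CPM in controls and 21.8 and 22.7 CPM with 6-thio-dG; its part in the members' values was not tested. Spread in this fit was shared with the more variable A375 libraries. Fitted alone, the LOX-IMVI BR libraries gave 44 called members (19 higher, 25 lower), 61.1% of those tested against 62.8% of all features. Leaving out any 1 of the 4 LOX-IMVI BR libraries left 1 library in a group. The calls of members were then lost and calls over all features became rarer too, while the median member lay between -0.10 and -0.02.

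MRPL49, a mitochondria-specific large subunit protein, was the member that rose. It measured 120.6 and 118.2 CPM in LOX-IMVI BR controls, 258.2 and 276.6 CPM with 6-thio-dG, and 138.8 and 133.9 CPM with BIBR1532. The 6-thio-dG libraries stood apart from the other 4, with a change of 1.16 ± 0.36 (adjusted p = 0.0357). In A375, MRPL49 measured 226.1 and 535.7 CPM in controls and 573.7 and 389.2 CPM with 6-thio-dG, groups that overlapped (0.34 ± 0.35, adjusted p = 0.525). BIBR1532 gave 256.1 and 238.0 CPM there, between the controls.

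MRPS27, a pentatricopeptide-repeat protein of the small subunit, fell with 6-thio-dG in LOX-IMVI BR. It measured 85.0 and 84.6 CPM in controls, 44.1 and 42.8 CPM with 6-thio-dG and 67.2 and 69.0 CPM with BIBR1532. The 3 groups were separate, and the 6-thio-dG change was -0.97 ± 0.31 (adjusted p = 0.0432). In A375 its values of 67.3 and 113.3 CPM in controls overlapped with 100.5 and 72.9 CPM under 6-thio-dG. With upper-quartile scaling, MRPS27 and MRPS6 in LOX-IMVI BR were at -0.73 and -0.70, with adjusted p values of 0.175 and 0.196.

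BIBR1532 in LOX-IMVI BR gave 0 called members, 0 with an unadjusted p under 0.05, and 0 by DESeq2. Calls were also rarer over all features, at 2.9% higher and 0.69% lower. The median member was at -0.01 and the median feature at 0.04, with members between -0.56 and 0.86. In the fit to this line alone 41 members were called, 15 higher and 26 lower, 56.9% of those tested against 44.8% of all features. Among the genes followed whatever their result, MRPL45, which lies near the tunnel exit, had the most negative value of -0.56 ± 0.28, from 113.7 and 110.3 to 75.6 and 75.8 CPM without overlap.

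**Figure D4:**
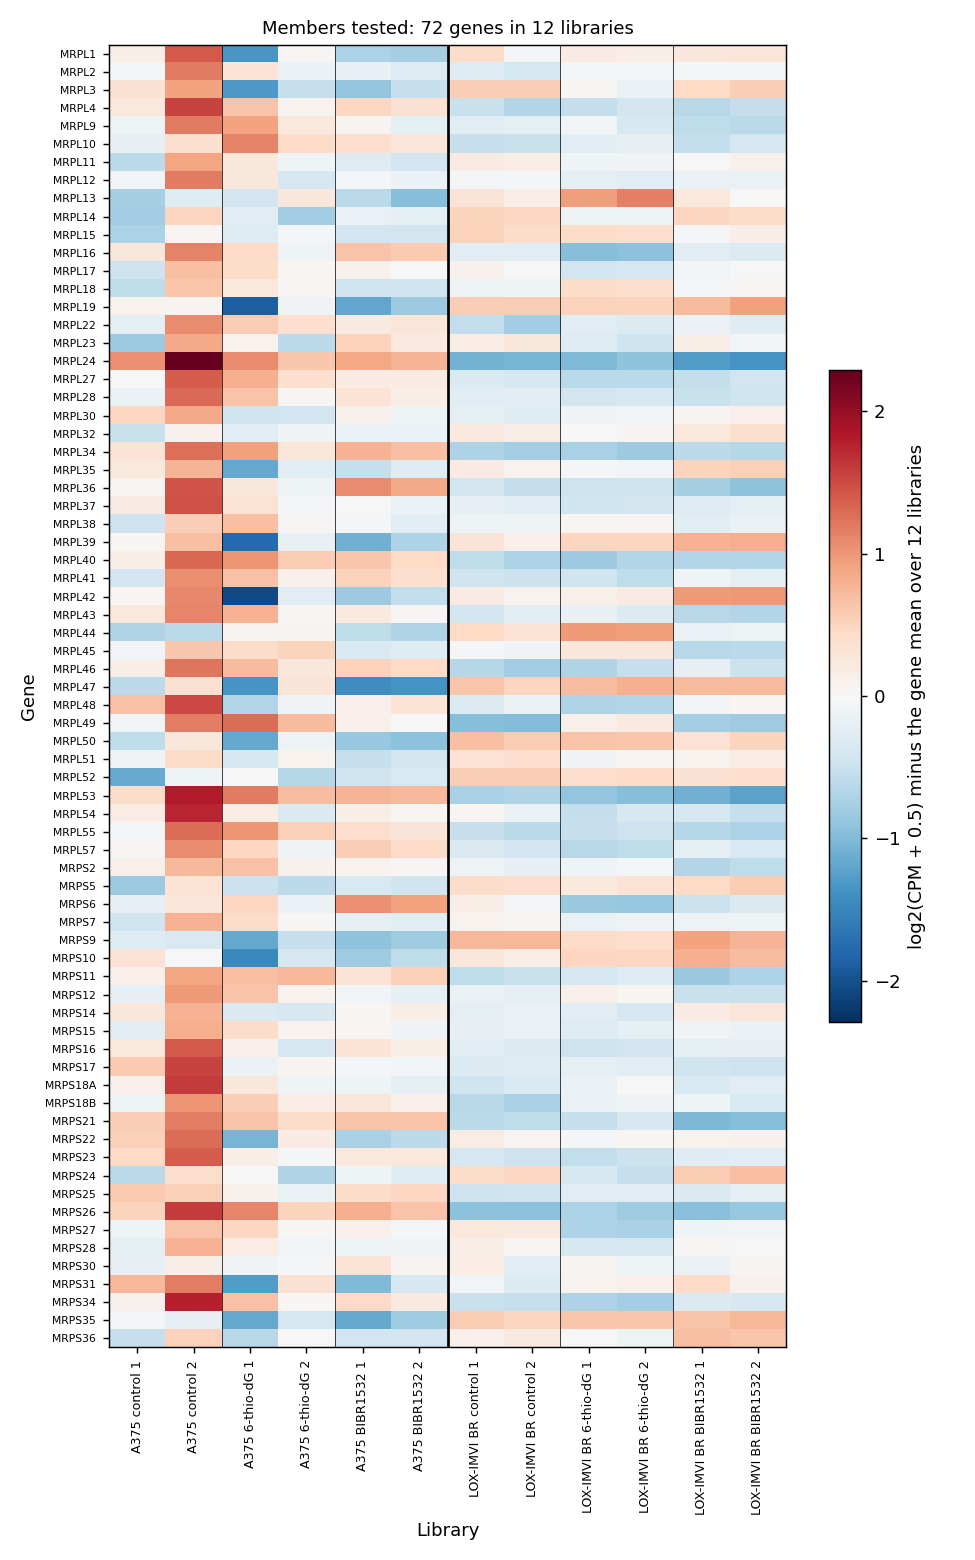
Level of each of the 72 tested members in each library as log2(CPM + 0.5) minus the gene's mean over 12 libraries, from -2.06 to 2.29 in colour. The column of A375 control 2 is red for most genes, and the paired columns of LOX-IMVI BR look alike.

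The compounds were compared directly within each line, at their own doses of 5 and 25 µM, so compound and dose cannot be told apart. In A375 no member was called, against 7.26% of all features higher and 8.76% lower with 6-thio-dG; 7 members had an unadjusted p under 0.05 by edgeR and DESeq2 called 2. In LOX-IMVI BR, 3 members were higher with 6-thio-dG and 1 lower, against 9.9% and 10.7% of all features. MRPL44, a large subunit protein with a ribonuclease III-like fold in which inherited defects cause cardiomyopathy, measured 65.7 and 65.5 CPM with 6-thio-dG and 30.1 and 30.8 CPM with BIBR1532. Its controls at 45.8 and 42.3 CPM lay between the treatments, and the difference was 1.11 ± 0.27 (adjusted p = 0.00903). In A375, MRPL44 measured 34.7 and 35.1 CPM with 6-thio-dG, 22.3 and 20.6 CPM with BIBR1532 and 20.6 and 21.6 CPM in controls. The A375 difference of 0.70 ± 0.27 had the same sign without passing the test (adjusted p = 0.088).

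MRPL45 showed the same order in LOX-IMVI BR, at 140.2 CPM in both 6-thio-dG libraries against 75.6 and 75.8 CPM with BIBR1532 (0.89 ± 0.29, adjusted p = 0.0391). In A375 it measured 157.3 and 166.6 CPM with 6-thio-dG and 91.5 and 96.6 CPM with BIBR1532 (0.78 ± 0.29, adjusted p = 0.0757). The groups did not overlap in either line. The third, MRPL13, stood at only 3.21 and 3.79 against 1.78 and 1.40 CPM (1.15 ± 0.38, adjusted p = 0.0418) and is named after its values were seen. MRPS24, of the small subunit, was lower with 6-thio-dG, at 2.57 and 2.24 CPM against 5.41 and 5.85 CPM (-1.23 ± 0.38, adjusted p = 0.0325). All of these calls were lost when any 1 of the 4 libraries was left out, and calls over all features became rarer too. For MRPL44 the difference stayed between 1.07 and 1.11.

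**Figure D5:**
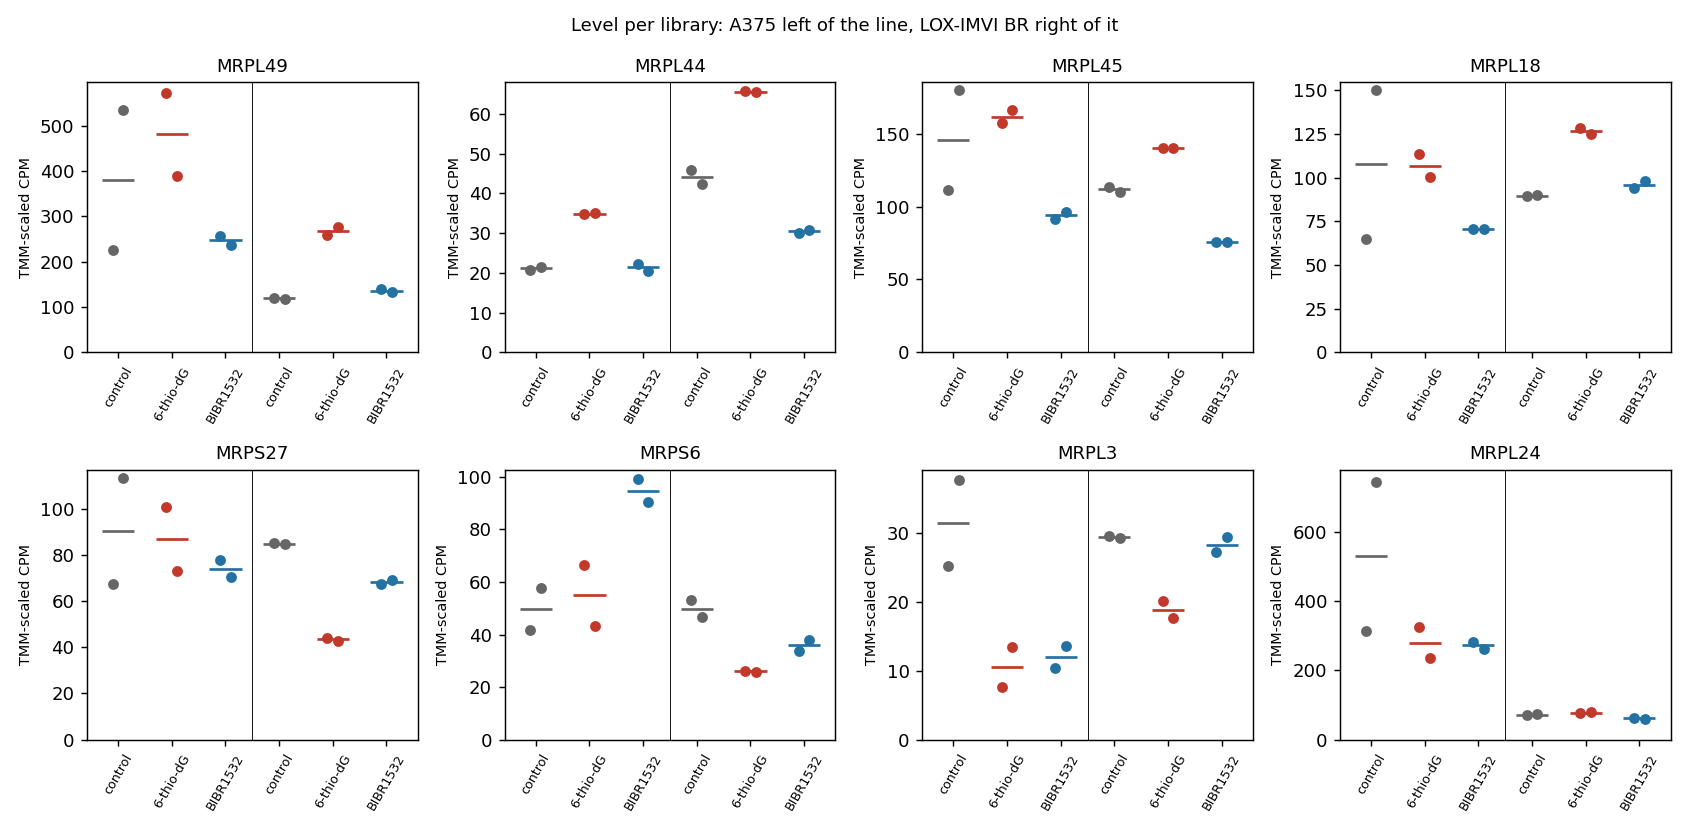
TMM-scaled CPM of 8 members per library (points) with the mean of 2 (lines), A375 left and LOX-IMVI BR right of the vertical line in each panel. MRPL44 and MRPL45 are higher with 6-thio-dG than with BIBR1532 in both lines, and MRPL24 is lower in all LOX-IMVI BR libraries than in all A375 libraries.

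A member's share of the family's own counts needs no scaling between libraries and is given as a description, without a test. The shares sum to a constant, so a larger share for some members requires a smaller one for others. With 6-thio-dG, MRPL49 had log2 share ratios of 0.75 in A375 and 1.15 in LOX-IMVI BR, MRPL44 of 0.96 and 0.56, and MRPL10, the stalk base that carries MRPL12, of 0.99 and 0.28. MRPL18, at 0.42 and 0.48, is among the 8 members plotted by library and was chosen after its values were seen. On the other side, MRPL3 had ratios of -1.20 and -0.66, MRPS22 of -0.86 and -0.13, and the stalk protein MRPL12 of -0.32 and -0.22. Other members changed sign between the lines: MRPS6 was at 0.42 and -0.95 and MRPS27 at 0.27 and -0.98. Of the 72 tested, 12 had shares above controls in both lines without overlap and 11 had shares below. Another 9 were above in A375 and below in LOX-IMVI BR, and 4 the reverse. The rest overlapped with controls in either line, and no such count was made over all features. With BIBR1532, compared with the same controls, the ratios were -0.93 and -0.07 for MRPL3 and -0.21 and -0.13 for MRPL12. Within the family, A375 controls differed by a median of 0.27 on this log2 scale, as did the A375 6-thio-dG libraries, against 0.05 to 0.08 for the BIBR1532 group of A375 and the 3 LOX-IMVI BR groups. Single members could differ more, so an A375 ratio can rest on 1 library. In A375, MRPS22 had shares of 1.407% and 1.136% in controls and 0.344% and 1.061% with 6-thio-dG. Those of MRPL44 were 0.407% and 0.206% in controls and 0.523% and 0.672% with 6-thio-dG.

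MRPS16 of the conserved small subunit core measured 321.4 and 717.8 CPM in A375 controls and 294.3 and 207.5 CPM with 6-thio-dG (-1.05 ± 0.34, adjusted p = 0.0461), a call lost without control 2 (-0.38, adjusted p = 0.282). MRPS18A fell with BIBR1532 in A375 (-1.20 ± 0.39, adjusted p = 0.0482), from 64.1 and 180.1 to 55.2 and 51.2 CPM, and was at -0.27 (adjusted p = 0.497) without control 2. For MRPL10, MRPL11, MRPL12, MRPS12, MRPS18B, MRPS30, MRPL37 and MRPS36 no treatment was called in either line. MRPS12, at the decoding centre, had values from -0.64 to 0.27 in the 4 treatment comparisons, and MRPS30 from -0.04 to 0.23.

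Whether the lines differed in their response was tested as an interaction. No member passed for 6-thio-dG or for BIBR1532 by edgeR, where 2.48% of all features were higher and 3.06% lower in LOX-IMVI BR for 6-thio-dG, and 2.09% and 1.55% for BIBR1532. At an unadjusted p under 0.05 there were 13 and 18 members, and DESeq2 called 2 and 4. The median difference was 0.38 for 6-thio-dG and 0.45 for BIBR1532, beside 0.10 and 0.14 for all features. Without A375 control 1 the median differences were 0.75 and 0.91, and without control 2 they were -0.21 and -0.20. Without the second 6-thio-dG library of A375 the 6-thio-dG median was 0.21. Each of these fits left 1 library in a group. Some members passed in each, and more of all features did as well.

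Control LOX-IMVI BR cells had lower levels of many members than control A375 cells: 32 of 72 were lower and 5 higher. Over all features 28.8% were lower and 21.1% higher, and over genes with a symbol 32.3% and 22.5%, beside 44.4% and 6.94% of members. Medians were -0.73 for members, -0.17 for genes with a symbol and -0.12 for features. Without A375 control 2 lower and higher members were closer in number and the median was -0.12. Without control 1 nearly all called members were lower and the median was -1.06. Each of these fits left 1 A375 control library. MRPL24, a conserved protein at the rim of the peptide tunnel, measured 71.7 and 72.5 CPM in LOX-IMVI BR and 314.4 and 744.8 CPM in A375. All 6 LOX-IMVI BR libraries, at 59.3 to 79.8 CPM, lay below all 6 of A375, at 234.3 to 744.8 CPM. The control difference was -2.88 ± 0.37 (adjusted p = 1.76e-05) and passed under each alternative run.

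MRPS26 and MRPL53, mitochondria-specific proteins of the small and large subunit, were lower as well. MRPS26 measured 53.1 and 53.3 CPM against 145.6 and 311.2 CPM in A375 (-2.10 ± 0.36, adjusted p = 0.000215). MRPL53 measured 63.3 and 65.5 CPM against 141.6 and 376.7 CPM (-2.01 ± 0.38, adjusted p = 0.000575). Both passed under each alternative run. MRPS34, a mitochondria-specific small subunit protein, measured 90.1 and 88.8 CPM against 137.0 and 442.6 CPM (-1.70 ± 0.42, adjusted p = 0.004), and was at -0.61 (adjusted p = 0.0824) without A375 control 2.

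The 5 members higher in LOX-IMVI BR were MRPL52, MRPS9, MRPL44, MRPL15 and MRPL13. MRPS9, a conserved small subunit protein, measured 17.9 and 17.8 CPM against 8.30 and 8.06 CPM in A375 (1.12 ± 0.30, adjusted p = 0.00564). The A375 controls matched each other for this gene and the groups were far apart. MRPL44 differed by 1.06 ± 0.27 (adjusted p = 0.00438), again with close A375 controls. MRPS9 and MRPL44 passed under each alternative run. MRPL52 measured 22.8 and 22.7 CPM against 6.54 and 14.0 CPM (1.16 ± 0.36, adjusted p = 0.0144), and MRPL15 118.2 and 110.1 CPM against 49.7 and 84.7 CPM (0.77 ± 0.30, adjusted p = 0.0456). Without A375 control 1 these 2 were at 0.70 (adjusted p = 0.0867) and 0.44 (adjusted p = 0.152). MRPL13, under 2 CPM in both groups, had a value of 1.11 (adjusted p = 0.044). By GC content, 15 of the 24 members in the highest group were lower, 10 of 24 in the middle and 7 of 24 in the lowest.

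The genes that build, feed and regulate mitochondrial ribosomes were read as 7 lists. In A375, 8.21% of all features were lower with 6-thio-dG and 7.29% with BIBR1532. Among genes with a symbol these shares were 12.9% and 10.3%. Between the controls 28.8% of all features were lower in LOX-IMVI BR. Of 7 mitoribosome proteins with other names, 1 was lower with 6-thio-dG in A375 (PTCD3, -1.29, adjusted p = 0.031) and 4 were lower in LOX-IMVI BR controls, including DAP3 (-1.53, adjusted p = 0.00144) and AURKAIP1 (-2.13, adjusted p = 0.000381). Of 22 assembly and rRNA modification genes tested, 3 were lower with BIBR1532 in A375, among them the rRNA methyltransferase METTL15 (-2.24, adjusted p = 0.0315), and none was called with 6-thio-dG, where METTL15 went from 9.31 and 18.3 to 0.835 and 8.87 CPM. Of 13 translation factors, 3 were lower with 6-thio-dG and 4 with BIBR1532 in A375. The elongation factor GFM1 measured 80.6 and 73.8 CPM in A375 controls, 11.1 and 29.8 CPM with 6-thio-dG and 24.7 and 36.4 CPM with BIBR1532. Its controls matched, both treatments lay below them, and the changes were -1.91 (adjusted p = 0.00505) and -1.34 (adjusted p = 0.0305).

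Of 19 protein import genes, 5 were lower with 6-thio-dG and 6 with BIBR1532 in A375, with list medians of -0.75 and -0.81. Beside them, 12.9% and 10.3% of genes with a symbol were lower, and their medians were -0.24 and -0.15. The mitochondrial chaperone HSPA9, which drives import, measured 902.3 and 722.9 CPM in controls, 170.5 and 330.6 CPM with 6-thio-dG and 346.6 and 429.4 CPM with BIBR1532 (-1.70, adjusted p = 0.00309, and -1.07, adjusted p = 0.0342). Of 19 aminoacyl-tRNA synthetases that serve mitochondria, 3 were lower with 6-thio-dG and 1 with BIBR1532 in A375. Of the 9 transcription and genome maintenance genes tested, the transcription factor TFB2M was lower with both compounds in A375 (-1.32, adjusted p = 0.0252, and -1.85, adjusted p = 0.00581), and the helicase C10orf2, also called Twinkle, was higher with 6-thio-dG in LOX-IMVI BR (0.90, adjusted p = 0.0389).

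Among 9 regulators, MYC, which promotes ribosome and mitochondrial biogenesis, measured 379.2 and 472.4 CPM in A375 controls, 27.9 and 18.1 CPM with 6-thio-dG and 92.5 and 89.3 CPM with BIBR1532. In LOX-IMVI BR it measured 424.4 and 410.2 CPM in controls, 537.6 and 542.0 CPM with 6-thio-dG and 1166 and 937.6 CPM with BIBR1532. MYC fell in A375 with both compounds (-4.21, adjusted p = 8.68e-06, and -2.23, adjusted p = 0.000253) and rose with BIBR1532 in LOX-IMVI BR (1.33, adjusted p = 0.0166). NRF1, YY1, ESRRA and PPRC1 were not called with either compound in either line, and GABPA had an adjusted p of 0.0552 for -2.06 with BIBR1532 in A375. Of the other genes followed, POLRMT was not called with either compound, and TFAM was counted too rarely to be tested. Between the controls, where 28.8% of all features were lower and 21.1% higher, 10 of 22 assembly genes, 9 of 19 synthetases and 8 of 19 import genes were lower in LOX-IMVI BR, and 2, 0 and 0 were higher. Of the 13 translation factors 2 were lower and 0 higher, of the 9 transcription and genome maintenance genes 3 and 1, and of the 9 regulators 1 and 1.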

How the data were processed

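Raw counts per gene, as whole numbers, were deposited for 12 libraries of TRIzol-purified RNA from a kit that does not keep strand, per the labels' protocols. STAR, Picard, GATK and featureCounts 1.5.1, with builds hg19 and GRCh37, are named in the submitters' processing notes, without their roles. Of 75253 features, 54072 were NONCODE transcripts, and 4 features with date-like names, at most 0.000913% of a library, were left out.

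All 12 libraries entered 1 edgeR 4.0.16 quasi-likelihood fit (R 4.3.3) of 6 groups with filterByExpr, TMM factors and robust dispersion, on 29114 features. Each of 9 comparisons was adjusted by Benjamini-Hochberg over all of them, with calls at 0.05. Alternatives were DESeq2 1.42.0, other scaling factors, filters and designs, and leaving out each library. GC content was computed on a gene's longest protein-coding transcript in GENCODE v29, and its trend was removed with the loess function of R (span 0.3). Promoter sequences were those of the first RefSeq start listed for a gene.

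The members and lists were chosen with earlier results of these data known. Members named were those followed whatever their result and, per comparison, up to 4 called members each way with the largest change, no overlap and a mean of 5 CPM or more in the group with the higher level. For members named by size of change, the lack of overlap was thus fixed by the choice. From each related list, up to 3 called genes per comparison were named.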

Additional observations from a re-analysis of the deposited data

How the results depend on the processing

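Counts of called members are given in the order 6-thio-dG and BIBR1532 in A375, the same in LOX-IMVI BR, 6-thio-dG against BIBR1532 in A375 and in LOX-IMVI BR, the line difference for each compound, and the controls. The reported counts were 13, 9, 3, 0, 0, 4, 0, 0 and 37. Leaving out 1 library gave ranges of 6 to 30, 0 to 41, 0, 0, 0 to 8, 0, 0 to 16, 0 to 20 and 16 to 48; the lowest and the highest A375 6-thio-dG count came without A375 control 2 and control 1, and the lowest control count without LOX-IMVI BR control 2. These fits left 1 library in a group, and the calls over all features changed as well. Removing the GC trend, which kept only the 14358 genes with a symbol and a GC value, gave 18, 18, 7, 1, 7, 9, 8, 5 and 37. In each case this was a smaller share of members than of those genes. The shares were 25% against 35.2% and 25% against 32% for the A375 treatments, and 9.72% against 30% for 6-thio-dG in LOX-IMVI BR. The called sets changed too: only 6 of the 13 and 6 of the 9 reported A375 calls were kept. The A375 calls were then 3 higher and 15 lower with 6-thio-dG, and 1 and 17 with BIBR1532. Fitting each line alone gave 0, 0, 44, 41, 0 and 48 for the first 6. No low-count filter gave 22 for the first, 2 for the compounds in A375, and 5 and 6 for the line differences. Genes with symbols alone gave 7, 3, 1 and 1 for the same 4. The DESeq2 test gave 2 in the A375 compound comparison and 2 and 4 for the line differences. DESeq2 size factors gave 5 for BIBR1532 in A375. Upper-quartile factors gave 5 and 5 for both compounds in A375 and 2 for their direct comparison there; they moved the median of all features by 0.39 for 6-thio-dG in A375 and by 0.23 in LOX-IMVI BR, and the split of members from 0 higher and 13 lower to 2 and 3, and from 1 and 2 to 2 and 0.

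Same-numbered treated and control samples were not seen to deviate together: in A375 the correlations of treated deviations with those of the controls were -0.089 and -0.137. Each rests on 1 difference per group, so whether the numbers mark pairs cannot be told. Between the 6-thio-dG and BIBR1532 groups of A375 the correlation was 0.35, and in LOX-IMVI BR all lay between -0.004 and 0.029. With the replicate number as a block the counts were 10, 8, 0, 0, 0, 1, 0, 2 and 19. Of 348 alternative fits of called members named in the text, 224 kept the direction and the call, 124 kept the direction only, and none changed sign. These members were chosen because they were called, and those ranked by size of change also because their groups did not overlap. Each refit used the same libraries, so the kept signs are no independent check. With 2 libraries a group, p-values measure only the spread between these libraries, and 6 residual degrees of freedom limit every test.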
